A study of Mus musculus with 8 samples.

Results

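The 9 genes described here encode isozymes of 4 glycolytic enzymes: hexokinase (Hk1 and Hk2), phosphofructokinase (PFK; Pfkl, Pfkm and Pfkp), aldolase (Aldoa and Aldoc) and lactate dehydrogenase (LDH; Ldha and Ldhb). They were picked out by gene symbol, with earlier results of these data known, and all 9 were found among the 13540 genes of the deposited table. The RNA came from mouse embryonic stem cell cultures of strain 129/Ola directed towards heart muscle, taken at day 0 as embryonic stem cells (ESC), at day 4 as mesodermal cells (MES), at day 5.3 as cardiac precursors (CP) and at day 10 as cardiomyocytes (CM). The 1 protocol given for all samples has embryoid bodies in serum-free medium with ascorbic acid and monothioglycerol, then reaggregation with human VEGF, Activin A and BMP4, then plating with VEGF, basic FGF and FGF10; it does not say which agents each stage had met. Each stage had 2 libraries, described as biological duplicates, but the table holds a single value per stage in RPKM (reads per kilobase of gene model and 1000000 reads). No spread between replicates, SD or p-value could therefore be had, and every difference below describes 4 stage values.

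Hexokinase traps glucose in the cell by phosphorylating it, PFK carries out the committed step of glycolysis, aldolase cleaves the resulting sugar bisphosphate, and LDH interconverts pyruvate and lactate. Each is encoded by several genes whose products differ in kinetics, regulation and tissue of origin. HK2 is the insulin-responsive hexokinase of muscle and is abundant in fast-growing cells, whereas HK1 is made in most tissues. PFK subunits are named after muscle (PFKM), liver (PFKL) and platelets (PFKP), and ALDOA is the muscle and ALDOC the brain aldolase. LDHA favours the reduction of pyruvate to lactate, and LDHB is the subunit that predominates in the adult heart.

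By summed RPKM, the stages carried the markers of their labels. The summed RPKM of 7 ESC markers was 1590, 93.5, 20.6 and 13.0 in ESC, MES, CP and CM, that of 7 MES markers was 7.12, 452, 116 and 32.3, that of 7 CP markers was 3.96, 97.9, 560 and 448, and that of 8 CM markers was 12.6, 9.79, 1030 and 9370. Of the CP markers, 1 of 7 stood 2-fold or more higher in CM than in CP and 3 stood lower. The 1 was Nkx2-5 (178 RPKM in CM, against 70.1 RPKM in CP), and Tbx5, Gata4 and Smyd1 were also highest in CM. Markers of other cell types were also present. Of 7 endothelial markers the sum was 21.4, 1.43, 285 and 95.8 RPKM over the 4 stages, and of 6 blood markers 2.68, 2.90, 256 and 21.2 RPKM. Of 5 fibroblast markers it was 16.8, 1.29, 25.9 and 241 RPKM, and of 6 smooth muscle markers, which include Acta2, also made by early heart muscle, 286, 20.1, 634 and 2490 RPKM. The sum of 6 neural markers was 218, 31.4, 30.5 and 20.7 RPKM. Depth recovered from the values was 75.3, 62.0, 64.8 and 88.5 M reads (1 M being 1000000), and each member value rested on between 602 and 209321 reads, so that its 95% Poisson interval reached at most 8.32% from the value. These intervals cover counting error only.

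All 9 isozyme genes had their highest level in CM, whereas 29.8% of all genes did. In MES, 6 of the 9 had their lowest level, beside 17.4% of all genes. Ldha and Pfkm were lowest in ESC (32.5% of all genes) and Ldhb was lowest in CP (10.7% of all genes). Over the 4 stages the sum of the 9 was 839.9, 734.6, 824.8 and 2175 RPKM, which was 0.317%, 0.289%, 0.343% and 0.836% of the RPKM of the whole table. The counting intervals of stages next to each other in level overlapped for none of the 9 genes. This was not counted over all genes, and the intervals are narrow at such read numbers. Since these are bulk cultures, fewer cells of a type and less RNA per cell cannot be told apart.

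**Figure D1:**
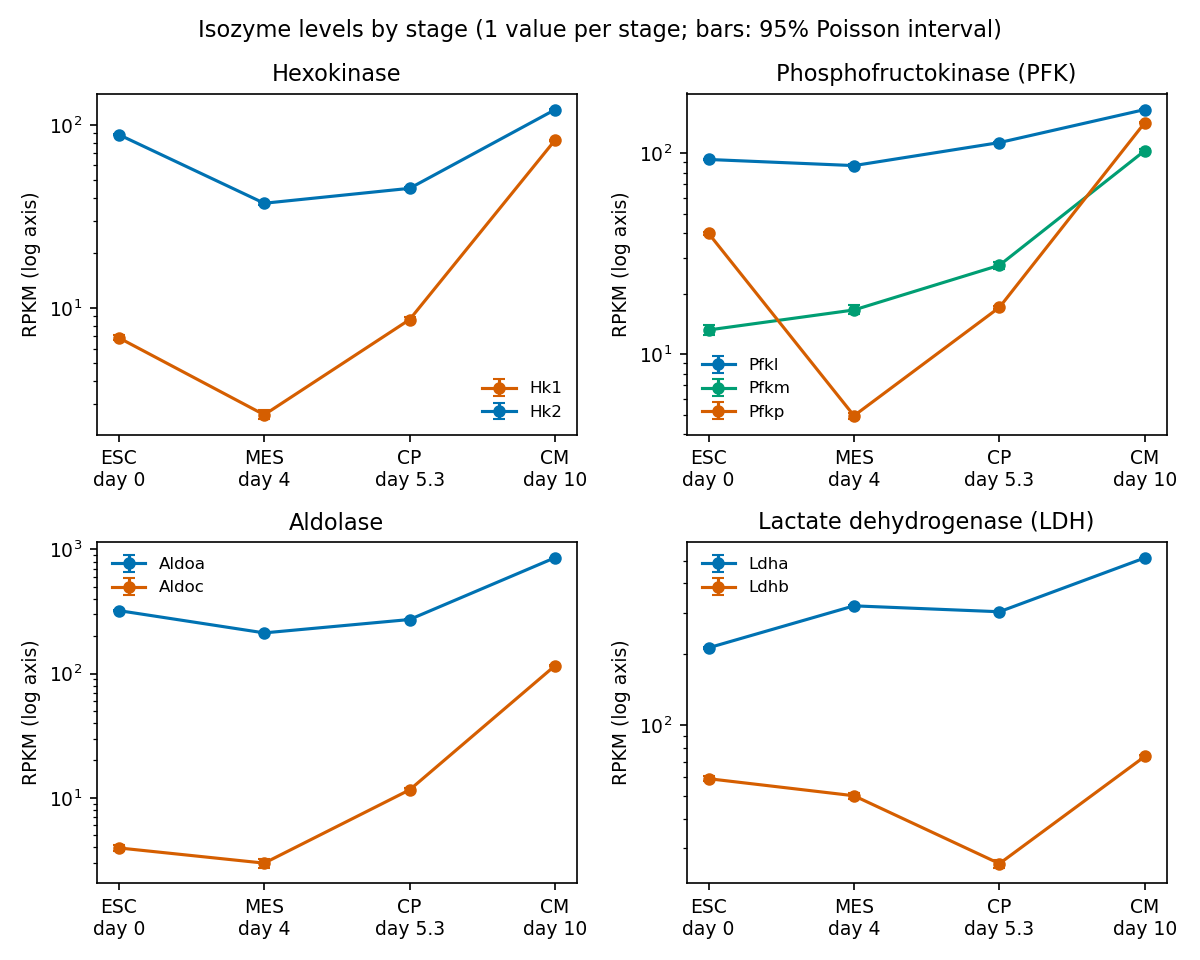
RPKM (log axis) of each isozyme gene at the 4 stages in order of time, 1 panel per enzyme and 1 point per stage, with 95% Poisson intervals as bars. All 9 lines end at their highest point in CM, and the lines of Pfkp (39.9 and 4.94 RPKM in ESC and MES) and Pfkm cross.

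From ESC through MES and CP to CM, the levels of Hk2 were 88.4, 37.3, 45.0 and 121 RPKM (gene ENSMUSG00000000628 in the table). Hk1 (ENSMUSG00000037012) stood at 6.87, 2.61, 8.64 and 82.5 RPKM. Hk2 was the higher of the pair at every stage, in a ratio to Hk1 of 12.9, 14.3, 5.20 and 1.47. By rank Hk1 was the 6368th gene from the top in ESC and the 451st in CM, and Hk2 the 485th and the 278th. Hk1 made up 7.21%, 6.55%, 16.1% and 40.5% of hexokinase RPKM, the last with a 95% interval of 40.2% to 40.7% from exact binomial counting error. Which gene leads in CM depends on the length used for Hk1, whose gene model of 8283 bases is 1.94 times its longest transcript in GENCODE M21. Per base of the longest transcript, a scale chosen after seeing the data, Hk1 held 56.9% of hexokinase in CM, and 13.1%, 12% and 27.2% in ESC, MES and CP. The order of the stages is the same on both scales by arithmetic, since the change of length is the same at every stage.

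Pfkl (ENSMUSG00000020277) was the most even of the PFK genes, at 93.1, 86.8, 113 and 165 RPKM over the 4 stages. Pfkm (ENSMUSG00000033065) stood at 13.2, 16.6, 27.7 and 103 RPKM, each stage above the one before it. Pfkp (ENSMUSG00000021196) stood at 39.9, 4.94, 17.1 and 142 RPKM and had the deepest dip of the 9 genes in MES, where it was the 7690th gene from the top. Pfkp exceeded Pfkm 3.03-fold in ESC, Pfkm exceeded Pfkp 3.37-fold in MES and 1.62-fold in CP, and Pfkp was again the higher in CM, by 1.38-fold. Pfkl held 63.7%, 80.1%, 71.6% and 40.3% of PFK RPKM, Pfkm 9.02%, 15.3%, 17.6% and 25.1%, and Pfkp 27.3%, 4.55%, 10.8% and 34.6%. In CM the 3 genes thus lay within 1.6-fold of each other, whereas in MES the range between Pfkl and Pfkp was 17.6-fold. Counted as reads without division by length, Pfkp (gene model of 9126 bases) exceeded Pfkl (4395 bases) in CM. Such counts favour the longer gene model. Per base of the longest transcript, Pfkl led in CM as it did in RPKM, with 43.9% of PFK, against 33.7% for Pfkp. The exons of Pfkp overlap those of Pitrm1 on the opposite strand by 748 bases in M21, and the labels do not say that reads were counted by strand. Pitrm1 stood at 43.0, 54.9, 33.5 and 19.0 RPKM, and the part of shared reads in either gene was not tested.

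Aldoa (ENSMUSG00000030695) was the most abundant of the 9 genes in ESC and CM, with 322, 213, 273 and 859 RPKM over the 4 stages, and ranked 18th of all genes in CM. Aldoc (ENSMUSG00000017390) stood at 3.95, 2.98, 11.6 and 116 RPKM and had the widest range of the 9, 39.1-fold between CM and MES. Its share of aldolase RPKM was 1.21%, 1.38%, 4.08% and 11.9%, with intervals of 1.13% to 1.29% in ESC and 11.8% to 12.1% in CM. Aldoa accounted for the rest at every stage. The gene model of Aldoa is 1.78 times its longest transcript. Per base of the longest transcript, the share of Aldoc was 0.8%, 0.914%, 2.73% and 8.2%, so the intervals do not cover the choice of length. Aldoc is widely used as a marker of astrocytes and Purkinje cells. Of the 6 neural markers in the table, Slc1a3, a glutamate transporter of astrocytes, stood at 2.16, 0.554, 2.31 and 5.04 RPKM, highest in CM like Aldoc, while the 6 together were lowest in CM. Their part in the Aldoc levels was not tested. For Aldoa, 32.9% of the 32-base words of its longest transcript also occur in transcripts of other genes, with Aldoart1 sharing the most, so its level is uncertain if shared reads were split or dropped.

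Ldha (ENSMUSG00000063229) stood at 213, 321, 303 and 513 RPKM and was the most abundant member in MES and CP. Ldhb (ENSMUSG00000030246) stood at 59.2, 50.1, 25.8 and 73.6 RPKM. Ldha was thus higher at every stage, in a ratio to Ldhb of 3.59, 6.39, 11.8 and 6.97, and the share of Ldhb in LDH RPKM was 21.8%, 13.5%, 7.84% and 12.5%. The share of Ldhb was largest in ESC and smallest in CP, and its share in CM lay below that in ESC. The gene model of Ldha is 1.64 times its longest transcript. Per base of the longest transcript, the share of Ldhb was 16.9%, 10.3%, 5.86% and 9.51%. Ldhc, the testis LDH gene, was listed at 1.34, 0.572, 0.0391 and 0.0214 RPKM. Of the words of the longest transcript, 33.2% in Ldha and 40.5% in Ldhb also occur in other genes, which carries the same uncertainty as for Aldoa.

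**Figure D2:**
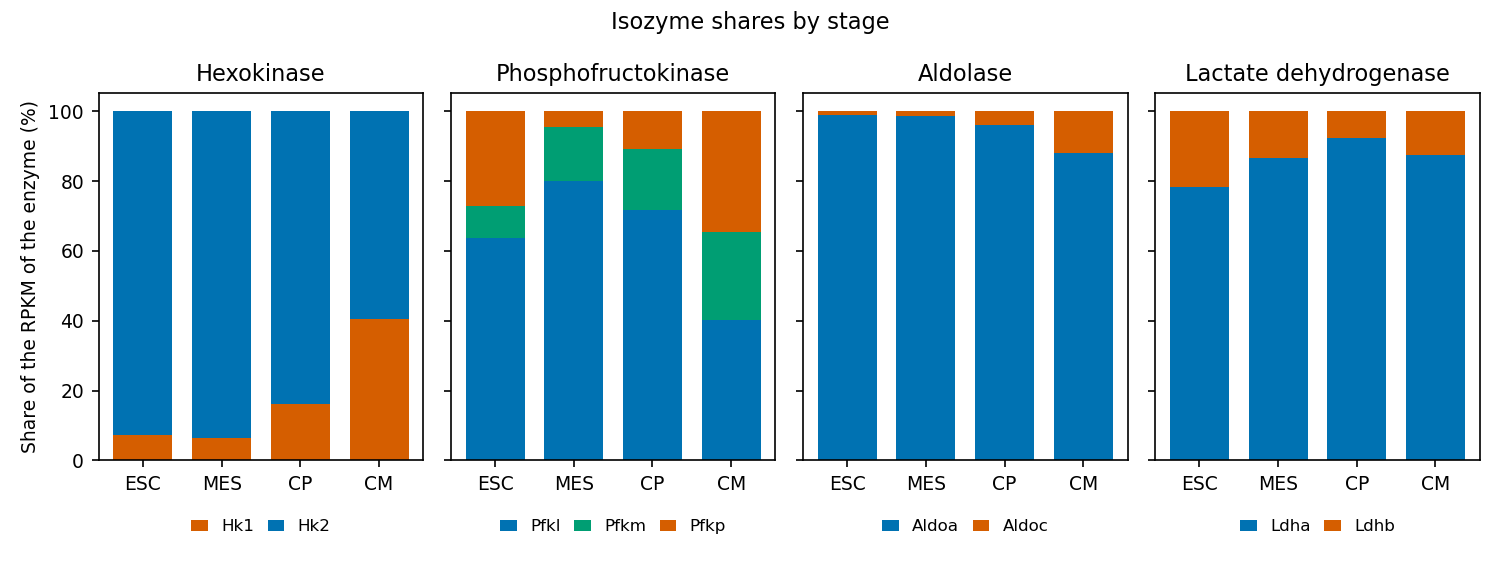
Share of each isozyme gene in the RPKM of its enzyme (vertical axis, percent) at the 4 stages, as stacked bars that add to 100% within a stage. Hk1 and Aldoc take larger shares in CP and CM, Pfkl takes its smallest share in CM (40.3%), and Ldhb its smallest in CP (7.84%).

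MES against ESC covers the loss of pluripotency and the formation of mesoderm. Measured as log2(RPKM + 1), where low genes differ by less than in RPKM, 3 of the 9 stood lower in MES by 2-fold or more and 0 stood higher, beside 11.2% and 11.1% of all genes. Pfkp stood at 4.94 RPKM in MES, against 39.9 RPKM in ESC, a log2 difference of -2.78 that only 1.64% of all genes matched or went below. Hk2 stood at 37.3 RPKM in MES, against 88.4 RPKM in ESC (log2 difference -1.22), and Hk1 at 2.61 RPKM in MES, against 6.87 RPKM in ESC (-1.12). Ldha went the other way without reaching 2-fold, with 321 RPKM in MES, against 213 RPKM in ESC (0.59). The median of the 9 was -0.31 and that of all genes 0.05. Summed over isozymes, hexokinase was 0.419 times, aldolase 0.661 times and PFK 0.742 times as high in MES as in ESC, and LDH 1.36 times as high. Among transporters, the glucose transporter gene Slc2a3 stood at 92.5 RPKM in MES, against 380 RPKM in ESC, and the lactate transporter gene Slc16a1 at 96.4 RPKM in MES, against 31.0 RPKM in ESC. Of the fibroblast markers 1 of 5, Col1a1, was at least 2-fold lower in MES (1.29 RPKM in sum, against 16.8 RPKM in ESC). So were 3 of 6 smooth muscle markers (20.1 RPKM in MES, against 286 RPKM in ESC) and 3 of 7 endothelial markers (1.43 RPKM, against 21.4 RPKM). Of the neural markers 5 of 6 were lower (31.4 RPKM in MES, against 218 RPKM in ESC). Of 8 dissociation and stress genes, 4 stood higher and 2 lower (262 RPKM in MES, against 155 RPKM in ESC). The part of these in the differences of the isozymes was not tested.

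CP against MES is the step at which mesoderm takes on a cardiac fate. Here 3 of the 9 stood higher in CP by 2-fold or more and 0 stood lower, beside 8.91% and 3.91% of all genes. These were Aldoc (11.6 RPKM in CP, against 2.98 RPKM in MES; log2 difference 1.67), Pfkp (17.1 RPKM in CP, against 4.94 RPKM in MES; 1.61) and Hk1 (8.64 RPKM in CP, against 2.61 RPKM in MES; 1.42). The most abundant isozyme of each of these 3 enzymes differed by under 2-fold, with Pfkl at 113 RPKM in CP, against 86.8 RPKM in MES, Hk2 at 45.0 RPKM in CP, against 37.3 RPKM in MES, and Aldoa at 273 RPKM in CP, against 213 RPKM in MES. The ratio of Hk1 to Hk2 was 2.74 times and that of Aldoc to Aldoa 3.04 times as high in CP as in MES, and a factor common to a stage cancels in such ratios. Under quantile normalization, which is no common factor, they were 2.14 and 2.54 times as high. Ldhb lay just short of 2-fold lower, with 25.8 RPKM in CP, against 50.1 RPKM in MES (-0.93). Of the endothelial markers 6 of 7 and of the blood markers 6 of 6 stood 2-fold or more above MES in CP (sums of 285 and 256 RPKM, against 1.43 and 2.90 RPKM in MES), with Emcn and Hba-x at 0 in MES, and their part in these differences was not tested. Of 12 genes of the glycolytic steps that the 9 do not cover, 4 stood higher in CP by 2-fold or more and 0 stood lower. Without Gapdh, Pgk1, Pgam1 and Eno1, which are known for many near-identical copies and whose levels are uncertain, it was 3 of 8, the fourth being Pgk1. Among the 3, Pgam2, the muscle phosphoglycerate mutase, stood at 129 RPKM in CP, against 2.40 RPKM in MES, and Eno3, the muscle enolase, at 79.9 RPKM in CP, against 10.3 RPKM in MES.

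CM against CP covers the step from precursors to heart muscle cells. In CM, 7 of the 9 stood higher by 2-fold or more and 0 stood lower, beside 11.3% and 12.8% of all genes, and the other two, Ldha and Pfkl, were higher by less. Aldoc stood at 116 RPKM in CM, against 11.6 RPKM in CP (log2 difference 3.22), Hk1 at 82.5 RPKM in CM, against 8.64 RPKM in CP (3.11), and Pfkp at 142 RPKM in CM, against 17.1 RPKM in CP (2.98). No more than 1.12% of all genes had a difference as high as any of these 3 genes. Pfkm was at 103 RPKM in CM, against 27.7 RPKM in CP (1.86), Aldoa at 859 RPKM in CM, against 273 RPKM in CP (1.65), Ldhb at 73.6 RPKM in CM, against 25.8 RPKM in CP (1.48), and Hk2 at 121 RPKM in CM, against 45.0 RPKM in CP (1.41). Ldha was at 513 RPKM in CM, against 303 RPKM in CP (0.76), and Pfkl at 165 RPKM in CM, against 113 RPKM in CP (0.55), and under quantile normalization these differences were 0.17 for Ldha and 0.28 for Pfkl. The median of the 9 was 1.65 and that of all genes -0.15.

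In each of the 4 enzymes, the isozyme with the smallest share of RPKM in CP had the largest ratio of CM to CP. In shares of reads this did not hold for PFK, where Pfkm had the smallest share in CP (10.6%, against 21.4% for Pfkp). The level in CP enters both the share and the ratio, so a low level in CP favours a large ratio in advance. The ratio of Hk1 to Hk2 was 3.54 times, that of Pfkp to Pfkl 5.68 times, that of Aldoc to Aldoa 3.19 times and that of Ldhb to Ldha 1.69 times as high in CM as in CP, the last being 2.59 times under quantile normalization. Summed over isozymes, hexokinase was 3.8 times, aldolase 3.42 times, PFK 2.60 times and LDH 1.78 times as high in CM as in CP. Of the smooth muscle markers 3 of 6 were at least 2-fold higher in CM (2490 RPKM in sum, against 634 RPKM in CP), of which Acta2 made up 1940 RPKM in CM, against 498 RPKM in CP. Of the fibroblast markers 5 of 5 were higher (241 RPKM in sum in CM, against 25.9 RPKM in CP), with Lum at 0 in CP, and 7 of 8 dissociation and stress genes stood 2-fold or more above CP in CM (883 RPKM in sum, against 267 RPKM in CP). All 10 proliferation genes stood lower by 2-fold or more in CM (95.6 RPKM in sum, against 605 RPKM in CP). Of the endothelial markers 4 of 7 were at least 2-fold lower in CM and 0 higher (95.8 RPKM in sum, against 285 RPKM in CP). Of the blood markers 5 of 6 were lower and 1 higher (21.2 RPKM in sum in CM, against 256 RPKM in CP). The part of these in the differences of the isozymes was not tested.

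**Figure D3:**
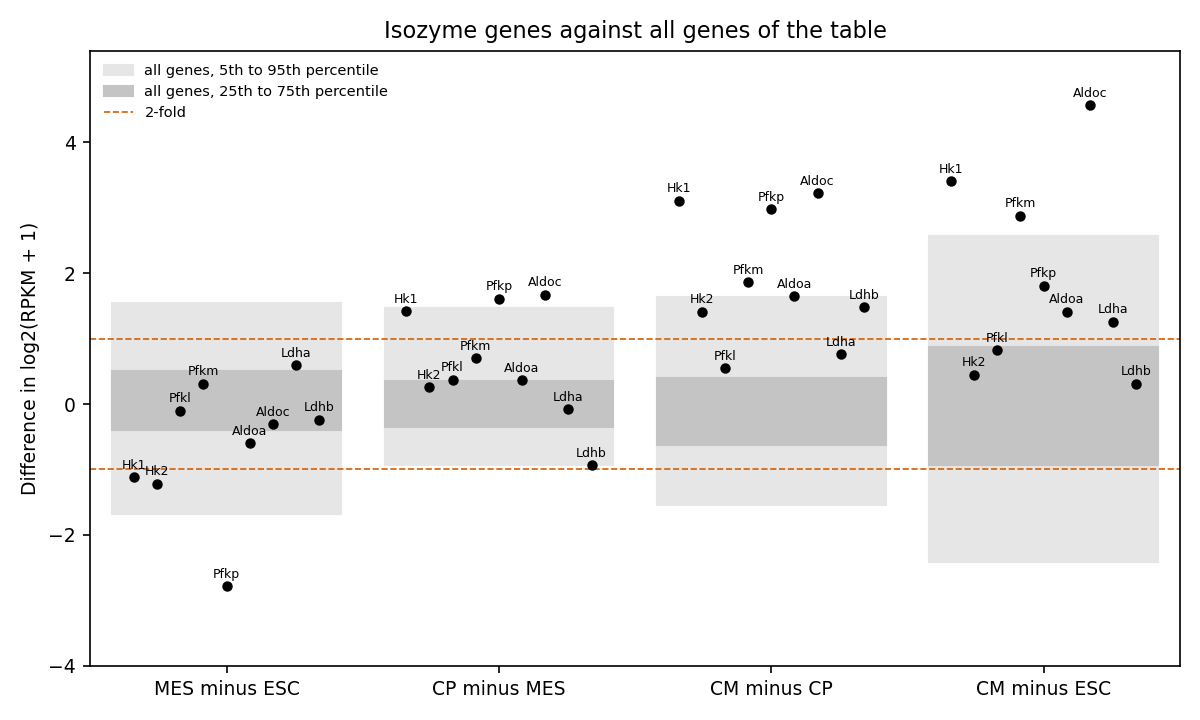
Differences in log2(RPKM + 1) of the 9 isozyme genes (points) for 4 pairs of stages, with the middle 50% and 90% of all 13540 genes as grey boxes and 2-fold as dashed lines. In CM minus CP all 9 points lie above 0, and Hk1, Pfkp and Aldoc stand near 3.

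CM against ESC spans the whole course, and it shares its stages with the comparisons above. In CM, 6 of the 9 stood above their ESC level by 2-fold or more and 0 below it, beside 22.2% and 23.4% of all genes. Aldoc stood at 116 RPKM in CM, against 3.95 RPKM in ESC (log2 difference 4.57), Hk1 at 82.5 RPKM in CM, against 6.87 RPKM in ESC (3.41), and Pfkm at 103 RPKM in CM, against 13.2 RPKM in ESC (2.88). Pfkp (1.81), Aldoa (1.41) and Ldha (1.26) were the others, and Ldha lay at 0.99, short of 2-fold, under quantile normalization. Hk2 (121 RPKM in CM, against 88.4 RPKM in ESC; 0.45), Pfkl (0.82) and Ldhb (73.6 RPKM in CM, against 59.2 RPKM in ESC; 0.31) differed by less than 2-fold. The share of Hk2 in hexokinase was 33.3 percentage points and that of Pfkl in PFK 23.4 points lower in CM than in ESC, and the share of Pfkm was 16.1 points higher. All 10 proliferation genes were lower in CM by 2-fold or more (95.6 RPKM in sum, against 1070 RPKM in ESC). Of the fibroblast markers 5 of 5 were higher (241 RPKM in CM, against 16.8 RPKM in ESC, where Lum was at 0), of the smooth muscle markers 5 of 6 (2490 RPKM in CM, against 286 RPKM in ESC) and of the dissociation and stress genes 6 of 8 (883 RPKM in CM, against 155 RPKM in ESC). Their part in these differences was not tested.

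Some stage profiles were alike across enzymes. By the root mean square difference of log2(RPKM + 1) after centring each gene on its 4 stages, the closest members were Pfkl and Ldha (0.25), then Hk2 and Aldoa (0.35). Outside the 9, among 9182 named genes that reach 5 RPKM, those close to Aldoc included Sgca (0.14), the muscle sarcoglycan alpha, and Car9 (0.25), a carbonic anhydrase. Closest to Hk1 were Casq1 (0.11), a calsequestrin of the sarcoplasmic reticulum, Myh7b (0.12), a myosin heavy chain, and Zfp36 (0.17), an RNA-binding protein. Closest to Pfkp were Aes (0.079), a Groucho-family corepressor, Ddah1 (0.19) and Ier3 (0.27), and closest to Pfkm were Rras (0.029), a small GTPase, Olfml2b (0.045) and C1qtnf4 (0.061). Over the 4 stages Aes stood at 70.2, 9.37, 34.6 and 246 RPKM, with the same dip in MES as Pfkp. With 4 values per gene such closeness is a description of these stages.

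The other genes of the pathway were uneven in CM against CP, read beside the 11.3% higher and 12.8% lower among all genes. Of the 12 genes of other glycolytic steps, 4 were at least 2-fold higher and 1 lower, with a median of 0.49. Without the 4 genes of many copies the counts were the same and the median of the other 8 was 0.94. Gpi1, glucose-6-phosphate isomerase, stood at 204 RPKM in CM, against 51.3 RPKM in CP, Tpi1, triose-phosphate isomerase, at 440 RPKM in CM, against 186 RPKM in CP, and Eno2 at 20.3 RPKM in CM, against 4.85 RPKM in CP. Adpgk, which phosphorylates glucose with ADP, was lower, with 6.35 RPKM in CM, against 16.6 RPKM in CP. Pkm, pyruvate kinase and the highest of these genes, stood at 654 RPKM in CM, against 530 RPKM in CP (0.30).

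Of 10 glucose and lactate transport genes, 6 stood higher by 2-fold or more in CM than in CP and 1 stood lower (median 1.11). Bsg, the basigin that carries lactate transporters to the membrane, stood at 1520 RPKM in CM, against 289 RPKM in CP, and Emb, embigin with a like role, at 9.43 RPKM in CM, against 46.3 RPKM in CP. The insulin-responsive glucose transporter gene Slc2a4 stood at 16.3 RPKM in CM, against 4.46 RPKM in CP, and Slc2a1 at 338 RPKM in CM, against 148 RPKM in CP. Of 7 genes that set the level of the PFK activator fructose 2,6-bisphosphate or otherwise restrain glycolysis, 2 were higher and 1 lower (median -0.06). Pfkfb3 stood at 19.1 RPKM in CM, against 4.79 RPKM in CP, Pfkfb4 at 1.34 RPKM in CM, against 3.89 RPKM in CP, and Txnip, an inhibitor of glucose uptake, at 239 RPKM in CM, against 61.6 RPKM in CP.

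On the routes out of glycolysis, the lists of pyruvate entry, NADH shuttles and glycogen held only higher genes among those 2-fold apart in CM against CP, and the pentose phosphate list only lower ones. Of 14 genes of pyruvate entry, 8 stood higher by 2-fold or more and 0 stood lower (median 1.16), and the 8 include 3 kinases that inhibit pyruvate dehydrogenase. They also include its subunit genes Pdhb (1.29) and Dlat (1.16) and Pdp2 (1.15), a phosphatase that activates it, which are named here after their values were seen. Pdk4 stood at 24.4 RPKM in CM, against 0.572 RPKM in CP, Pdk2 at 42.6 RPKM in CM, against 3.95 RPKM in CP, and Pdk1 at 52.6 RPKM in CM, against 15.4 RPKM in CP. Pdha1, the alpha subunit gene, stood at 66.0 RPKM in CM, against 35.6 RPKM in CP (0.87). Of 9 genes of the shuttles that reoxidise NADH, 4 were higher and 0 lower (median 0.80), led by the aspartate-glutamate carrier gene Slc25a12 (11.9 RPKM in CM, against 2.04 RPKM in CP). Of 12 glycogen genes, 8 were higher and 0 lower (median 1.93), with the muscle glycogen phosphorylase gene Pygm at 87.7 RPKM in CM, against 3.30 RPKM in CP, and glycogen synthase, Gys1, at 152 RPKM in CM, against 19.1 RPKM in CP. Of 7 pentose phosphate genes, 0 were higher and 2 lower (median -0.80): transketolase, Tkt, stood at 114 RPKM in CM, against 263 RPKM in CP, and Pgd at 10.8 RPKM in CM, against 25.0 RPKM in CP.

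**Figure D4:**
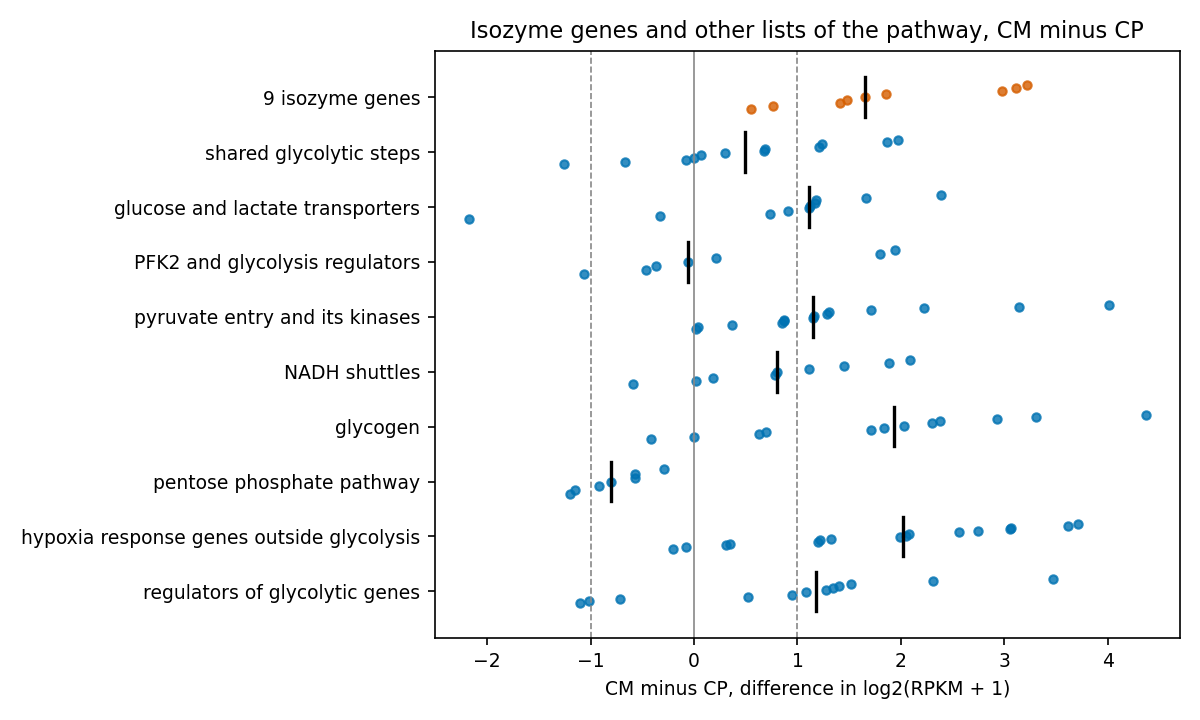
Difference in log2(RPKM + 1) of CM minus CP (horizontal axis) for the 9 isozyme genes and for the members of 9 pathway lists (1 point per gene, black bars for medians, dashed lines at 2-fold). The isozyme genes all lie above 0 (median 1.65), while the pentose phosphate genes all lie below 0 (median -0.80).

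Several isozyme genes of this set, Ldha, Aldoa and Hk2 among them, are known targets of the hypoxia-inducible factor HIF1, which binds a short core motif in promoters. Of 16 hypoxia response genes outside glycolysis, 12 were at least 2-fold higher in CM than in CP and 0 lower (median 2.02). Ndrg1 stood at 62.4 RPKM in CM, against 3.86 RPKM in CP, the adrenomedullin gene Adm at 38.7 RPKM in CM, against 2.23 RPKM in CP, and Car9 at 29.0 RPKM in CM, against 2.58 RPKM in CP. Kdm3a did not differ by 2-fold, at 23.4 RPKM in CM, against 24.7 RPKM in CP. Of 12 genes for factors that act on glycolytic genes, 7 were higher and 2 lower (median 1.18). Nr1d1, a repressor of the circadian clock, stood at 26.4 RPKM in CM, against 1.48 RPKM in CP, and Ppargc1a, a coactivator of mitochondrial genes, at 7.40 RPKM in CM, against 0.696 RPKM in CP. Mycn, the proto-oncogene, and Mef2c were the 2 lower genes, with Mycn at 10.8 RPKM in CM, against 23.0 RPKM in CP. Mycn, Mef2c and Hif1a are named here after their values were seen, and Hif1a itself stood at 53.1 RPKM in CM, against 24.5 RPKM in CP. Whether these regulators act on the 9 genes was not tested.

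Windows that hold ACGTG, a form of that core motif, are shown for 3 members at least 2-fold higher in CM than in CP. Ldha is added for comparison as a gene under 2-fold. The windows were picked after the matches were seen. The windows are those of RefSeq on GRCm38.p6, from 250 bases before to 50 after an annotated start, on a newer build than the mm9 of the values, and are written 5′ to 3′ along the gene's strand. Capitals mark ACGTG on either strand. They are Hk1 at chr10:62340372-62340671 (minus strand), Hk2 at chr6:82774405-82774704 (minus strand), Aldoc at chr11:78322823-78323122 (plus strand) and Ldha at chr7:46845554-46845853 (plus strand).
Hk1: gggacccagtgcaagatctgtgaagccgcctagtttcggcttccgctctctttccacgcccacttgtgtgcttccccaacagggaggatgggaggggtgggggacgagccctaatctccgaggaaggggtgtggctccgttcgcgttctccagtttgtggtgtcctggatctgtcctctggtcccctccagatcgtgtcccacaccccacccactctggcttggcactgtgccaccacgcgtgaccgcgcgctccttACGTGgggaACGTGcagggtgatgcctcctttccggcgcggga
Hk2: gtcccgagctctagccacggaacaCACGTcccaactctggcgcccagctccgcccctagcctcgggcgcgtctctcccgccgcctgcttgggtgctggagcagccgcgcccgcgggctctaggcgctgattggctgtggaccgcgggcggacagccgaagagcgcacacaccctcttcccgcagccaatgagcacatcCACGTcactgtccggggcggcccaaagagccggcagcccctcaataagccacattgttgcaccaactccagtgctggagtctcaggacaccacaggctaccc
Aldoc: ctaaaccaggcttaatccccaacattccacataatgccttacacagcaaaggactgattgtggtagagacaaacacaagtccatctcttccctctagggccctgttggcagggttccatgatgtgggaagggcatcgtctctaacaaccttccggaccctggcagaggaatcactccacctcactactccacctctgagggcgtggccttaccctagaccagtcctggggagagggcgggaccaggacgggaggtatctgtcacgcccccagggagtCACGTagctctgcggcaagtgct
Ldha: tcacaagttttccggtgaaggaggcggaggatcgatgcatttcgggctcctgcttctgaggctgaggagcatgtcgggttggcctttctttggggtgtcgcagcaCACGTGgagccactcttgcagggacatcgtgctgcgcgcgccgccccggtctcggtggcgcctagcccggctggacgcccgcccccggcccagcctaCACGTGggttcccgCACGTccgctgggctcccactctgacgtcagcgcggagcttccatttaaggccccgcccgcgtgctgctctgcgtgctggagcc

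Counted on both strands, the Ldha window holds ACGTG 5 times, 4 of them within 2 copies of CACGTG, which reads the same on both strands and so holds the shorter motif in each direction. The Hk1 and Hk2 windows each hold it 2 times and the Aldoc window 1 time. All 9 genes had windows, 17 in all since several have more than 1 annotated start and some windows overlap, and 8 windows of 6 genes held ACGTG, among them 2 overlapping Aldoa windows that share 1 match. Of all 27025 genes with a window, whether or not in the deposited table, 21.8% held ACGTG in at least 1. A gene with more windows has more chances to hold it, and windows per gene were not matched. Pfkl, Pfkp and Ldhb had no ACGTG in theirs. GCGTG, a further form of the core, was in 10 windows of 7 genes. It occurred 4 times in the single Pfkp window, and 1 time each in the single windows of Pfkl and Ldhb. Of all 32851 promoter windows of the same length, 19.6% held ACGTG, 32.4% GCGTG and 7.15% CACGTG. A match describes these letters and does not show that a factor binds there.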

How the data were processed

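RNA was measured by sequencing of 2 libraries at each of 4 stages (8 in all). The deposited table gives 1 RPKM value per gene and stage, made by the authors; the sources used here do not give how the libraries were combined, or the counter and annotation. Reads were aligned with Novoalign 2.07.00 to mm9, per the submitters' processing notes. Differences were computed here as log2(RPKM + 1) from the deposited RPKM with Python 3.11.15, numpy 2.4.6, pandas 2.3.3 and scipy 1.17.1 (figures with matplotlib 3.10.9), and a 2-fold difference was counted as a description, with no test. An isozyme share is a member's RPKM over the summed RPKM of its enzyme. Depth, gene model lengths and reads were recovered from RPKM steps, using 1864 of 1937 low genes (relative tolerance 1.5e-07). On simulated data with 300 genes, 100% were recovered. Reads of Pfkm are the smallest whole numbers that fit and may be a multiple. The 95% intervals are exact Poisson for RPKM and exact binomial for shares, and cover counting error only, since PCR copies are not marked. Sequence matches used GENCODE M21 and RefSeq.

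The members and lists were chosen with earlier results of these data known. All 9 members are named; of each pathway list, up to 4 genes at least 2-fold apart by size of difference and up to 2 others by mean RPKM are named, and for the 4 members of widest range the 3 genes most like them, except that some genes are not reported here. Gapdh, Pgk1, Pgam1 and Eno1 are not described singly because they are known for many near-identical copies in the genome; leaving them out, and quantile normalization of ratios, were added after seeing the data. Alternatives were other pseudocounts, fold minimums, scalings, a filter at 3 RPKM and other bases for shares.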

Additional observations from a re-analysis of the deposited data

How the results depend on the processing

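No paired analysis was possible because the table gives 1 value per stage and its columns carry no replicate numbers; for the same reason no replicate could be left out, and nothing here measures the spread between cultures. With a minimum of 1.5-fold, 5 members stood apart in MES against ESC (1 higher, Ldha) and 5 in CP against MES (1 lower, Ldhb), in place of 3 each. Of all genes, 21.8% were then higher and 19.4% lower in MES against ESC, and 16.4% and 13.3% in CP against MES. With a minimum of 4-fold, 1 member stood apart in MES against ESC (1 lower, Pfkp), 0 in CP against MES (0 higher), 3 in CM against CP (3 higher: Hk1, Pfkp and Aldoc) and 3 in CM against ESC (3 higher: Hk1, Pfkm and Aldoc). At 4-fold, 3.47% of all genes were lower in MES against ESC and 2.74% higher in CP against MES. Higher were 3.23% in CM against CP and 8.73% in CM against ESC. These minimums change the counts by construction. Across both pseudocounts, 3 scalings and the filter at 3 RPKM, 1 of 36 differences changed sign (Ldha in CP minus MES, -0.08 as deposited and 0.10 under quantile normalization). Scaling each stage to a sum of 1000000 put the median of all genes in CM minus CP at -0.29, in place of -0.15, and that of the members at 1.54. The members' median was 1.81 with median of ratios scaling and 1.51 with quantile normalization. The largest shift of any difference under a scaling was 0.59, for Ldha in CM minus CP under quantile normalization (0.17, in place of 0.76). The shares of 6 members differed by at least 10 percentage points between CM and ESC, and of 4 per base of the longest transcript, where Aldoa and Aldoc fell short. In shares of reads the count was also 6, but Pfkp (45.0% in ESC and 56.2% in CM) took the place of Pfkm (4.52% and 12.4%). Of 16 leading isozymes, 2 changed in shares of reads and 1 per base of the longest transcript, an alternative chosen after seeing the data.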
